A study of Sus scrofa with 23 samples.

Results

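RNA levels of 10 genes of salt, magnesium and calcium transport in the distal convoluted tubule were measured in the kidney cortex of 23 newborn pigs. They are SLC12A3, WNK4 and KCNJ10 for sodium chloride, TRPM6 for magnesium, CALB1, TRPV5, SLC8A1, ATP2B1 and PVALB for calcium, and the transcription factor TFAP2B. The 10 genes were chosen by name out of 26687 annotated genes, in view of measured differences between libraries labelled CF and non-CF and between libraries with earlier and later title numbers. For that reason, those differences are given for the 10 genes as a description, with no test. The labels HET and WT were named in the choice as well, and their difference is likewise described for the 10 genes with no test.

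The distal convoluted tubule is the short segment of the nephron after the thick ascending limb. Its cells take up sodium chloride through the thiazide-sensitive cotransporter encoded by SLC12A3, whose activity is set by the WNK kinases and by potassium channels of the basolateral membrane. The late part of the segment and the connecting tubule that follows it reabsorb calcium: it enters through an apical channel, is carried across the cell by calbindin and leaves through an exchanger and a pump.

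Total RNA was sequenced after removal of ribosomal RNA from 11 piglets labelled CFTR–/– (CF), 6 labelled CFTR+/– (HET) and 6 labelled wild type (WT), each library coming from another animal. CFTR is the anion channel that is defective in cystic fibrosis. Piglets were bred from CFTR+/– parents and are not an inbred strain. The labels give neither the litter nor the sex of each animal, and all were newborn and had no treatment named in the labels. HET and WT libraries together form the 12 non-CF libraries. Libraries held from 32901281 to 52952273 estimated counts, with a median of 43636298 for CF, 47476461 for HET and 42709608 for WT. Levels are given as CPM, counts scaled to a constant library total that is first adjusted by edgeR's TMM factors. Without that adjustment, 3 counts were worth from 0.0567 to 0.0912 CPM by library, a limit on counting error only.

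Title numbers 1 to 6 and 12 to 18 are called earlier and 7 to 11 and 19 to 23 later. The 13 earlier libraries hold 6 labelled CF, 3 HET and 4 WT, and the 10 later libraries hold 5, 3 and 2. This split was found in these data, and the labels name no batch. CFTR, the disrupted gene (chromosome 18, from 28627717 to 28818209 in the build Sscrofa11.1), was examined first. Its RNA ranged from 1.27 to 3.67 CPM in libraries labelled WT, from 9.41 to 17.5 in HET and from 12.5 to 23.5 in CF. The order thus goes against a loss of the transcript in the libraries labelled CF. Counts are summed over whole transcripts and do not read the allele itself, so groups are named throughout by the labels of their libraries, and every direction given rests on those labels.

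All 10 genes passed the expression filter of edgeR and had counts in every library. Levels of different genes were compared per length, as TPM, which divides counts by transcript length, summed over each gene's transcripts. CALB1 had the highest mean level with 180 ± 141 TPM (SD, n = 23), followed by SLC12A3 with 99.6 ± 37.6 and PVALB with 96.6 ± 45.7. CALB1 was above SLC12A3 in 18 of 23 libraries. SLC12A3 was above PVALB in 14 of 23, so that this pair did not differ beyond its spread. Below them stood ATP2B1 with 35.7 ± 5.75 TPM, lower than PVALB and higher than SLC8A1 in 23 of 23 libraries. SLC8A1 had 18.8 ± 6.70 and WNK4 16.6 ± 5.06 TPM, and SLC8A1 was above WNK4 in 14 of 23 libraries. The lowest levels were those of TRPV5 (9.28 ± 4.33 TPM), KCNJ10 (7.96 ± 1.98), TFAP2B (7.01 ± 1.496) and TRPM6 (5.99 ± 1.08), whose ranges overlapped. The spread between libraries differed widely among the genes. Over all 23 libraries the SD of log2 CPM was 1.16 for CALB1, 0.70 for PVALB and 0.66 for TRPV5, but 0.15 for ATP2B1.

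**Figure D1:**
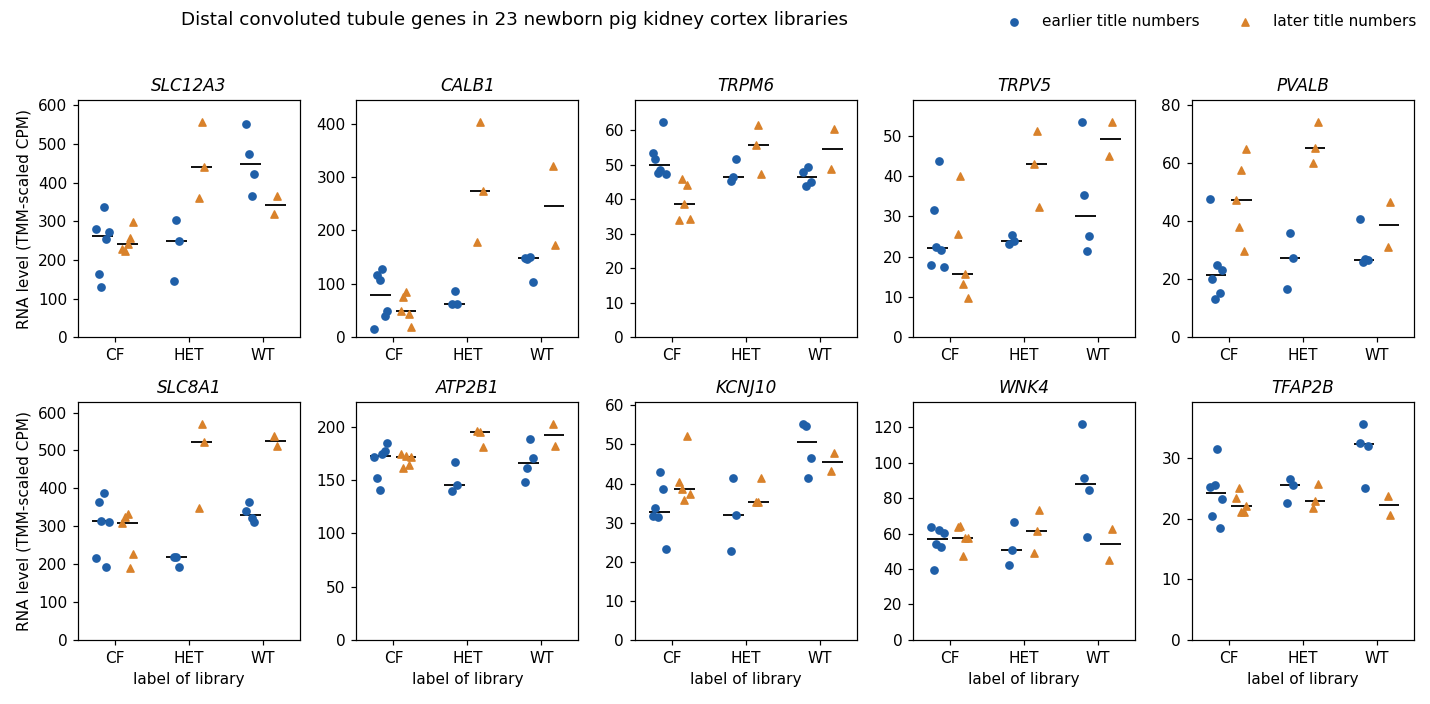
Level of each of the 10 genes in CPM after TMM scaling (linear axes from 0) in libraries labelled CF, HET and WT. Each point is 1 library, blue circles are earlier and orange triangles later title numbers, and black lines are medians. For CALB1 the later libraries labelled CF lie between 19.04 and 85.2 CPM and the later non-CF libraries between 172 and 404 CPM.

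SLC12A3 encodes the apical sodium-chloride cotransporter that defines the segment (chromosome 6, from 18844752 to 18885497). Its level ranged from 129 to 336 CPM in libraries labelled CF (median 254), from 147 to 557 in HET (median 332) and from 319 to 551 in WT (median 394). Of the 11 libraries labelled CF, 10 were below the lowest WT library, while the HET libraries spanned both other groups. The log2 fold change of CF against non-CF was -0.64 (SE 0.172). It was -0.59 (SE 0.270) in the earlier and -0.71 (SE 0.141) in the later libraries. The gene was thus lower in CF than in the pooled non-CF libraries in both. In the earlier libraries, however, the mean of CF (239 CPM) stood beside that of HET (233) and below that of WT (453). The HET libraries divided by title number: the earlier 3 had 147, 249 and 304 CPM, within the range of CF, and the later 3 had 360, 440 and 557 CPM, above every CF library. In the bulk tissue, fewer cells of the segment and less RNA per cell cannot be told apart.

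WNK4 encodes a kinase that regulates the cotransporter (chromosome 12, from 20064688 to 20081781, reverse strand). It ranged from 39.5 to 64.1 CPM in CF (median 57.5), from 42.5 to 73.2 in HET (median 56.1) and from 45.4 to 122 in WT (median 73.5). Its high values were confined to 3 earlier WT libraries, with 122 CPM in WT12, 91.5 in WT16 and 84.6 in WT18. Every other library of any label was at 73.2 CPM or below. Against non-CF, the log2 fold change of CF was accordingly -0.42 (SE 0.207) in the earlier and -0.00086 (SE 0.127) in the later libraries.

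KCNJ10 encodes a basolateral potassium channel subunit (chromosome 4, from 90421956 to 90457406), and TFAP2B a transcription factor of the distal nephron (chromosome 7, from 44745653 to 44774563). KCNJ10 ranged from 23.2 to 52.2 CPM in CF (median 37.3), from 22.9 to 41.5 in HET (median 35.3) and from 41.5 to 55.2 in WT (median 47.2). TFAP2B ranged from 18.5 to 31.6 CPM in CF (median 23.3), from 21.8 to 26.6 in HET (median 24.2) and from 20.6 to 35.7 in WT (median 28.6). The libraries WT12, WT16 and WT18, which were high for WNK4, also had the 3 highest TFAP2B levels, from 32.0 to 35.7 CPM. WT12 and WT16 had the highest KCNJ10 levels as well, 55.2 and 54.6 CPM. Both genes were lower under the label CF in the earlier libraries, by log2 fold changes of -0.32 (SE 0.185) and -0.25 (SE 0.131). Among the later libraries the values were 0.01 (SE 0.117) and -0.02 (SE 0.0857).

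CALB1 encodes calbindin-D28k, the calcium-binding protein that carries calcium through the cell (chromosome 4, from 46701276 to 46723548, with 1 annotated transcript of 869 bases). It showed the widest difference of the 10 genes between CF and non-CF. Its level ranged from 16.7 to 127 CPM in libraries labelled CF (median 50.4), from 63.1 to 404 in HET (median 133) and from 103 to 320 in WT (median 150). The log2 fold change of CF against non-CF was -1.40 (SE 0.345), a level 2.64-fold higher in non-CF. In the later libraries the groups did not overlap: the 5 labelled CF had 19.04, 43.5, 50.1, 75.8 and 85.2 CPM and the 5 non-CF libraries 172, 179, 273, 320 and 404 CPM. In the earlier libraries the CF values, from 16.7 to 127 CPM, enclosed all 3 HET values (63.1, 63.2 and 87.8) and reached above the lowest of the 4 WT values (103, 147, 149 and 151). Fitted apart by title number, its log2 fold change of CF against non-CF was -0.51 (SE 0.384) in the earlier and -2.29 (SE 0.348) in the later libraries. The difference between these values was not tested. Among non-CF libraries alone, CALB1 was higher in the later libraries by a log2 fold change of 1.30 (SE 0.265), and among those labelled CF it was -0.49 (SE 0.469).

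TRPV5, the apical calcium channel (chromosome 18, from 7285186 to 7341965), and SLC8A1, the sodium-calcium exchanger of the basolateral membrane (chromosome 3, from 99823503 to 100257306), had a pattern like that of CALB1. TRPV5 ranged from 9.79 to 43.7 CPM in CF (median 21.7), from 23.3 to 51.3 in HET (median 28.8) and from 21.4 to 53.5 in WT (median 40.2). SLC8A1 ranged from 191 to 387 CPM in CF (median 312), from 191 to 570 in HET (median 284) and from 310 to 538 in WT (median 351). In the later libraries SLC8A1 was at 191, 226, 309, 324 and 333 CPM under the label CF and at 348, 511, 522, 538 and 570 CPM in non-CF, again without overlap. For TRPV5, 4 of the 5 later CF libraries lay below every later non-CF library, and CF8, at 40.0 CPM, lay among them. The log2 fold changes of CF against non-CF in the later libraries were -1.10 (SE 0.302) for TRPV5 and -0.84 (SE 0.165) for SLC8A1. In the earlier libraries they were -0.20 (SE 0.245) and 0.08 (SE 0.186). HET20, WT22 and HET21 had, in this order, the 3 highest levels of both CALB1 and SLC8A1.

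ATP2B1 encodes the calcium pump of the plasma membrane, which many cell types express (chromosome 5, from 92935688 to 93061406). It was the steadiest of the 10 genes, with 141 to 184 CPM in CF, 140 to 196 in HET and 148 to 202 in WT. The later libraries labelled CF, from 161 to 174 CPM, nevertheless lay below all later non-CF libraries, from 181 to 202 CPM. This is a small difference, with a log2 fold change of -0.17 (SE 0.0665), against 0.05 (SE 0.0850) in the earlier libraries.

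TRPM6, the apical magnesium channel (chromosome 1, from 227809511 to 228037923, reverse strand), ranged from 33.8 to 62.4 CPM in CF, from 45.4 to 61.4 in HET and from 43.7 to 60.2 in WT. All 6 earlier libraries labelled CF (47.3 to 62.4 CPM) were above the median of the earlier non-CF libraries (46.5 CPM), and all 5 later ones (33.8 to 45.9 CPM) were below the lowest later non-CF library (47.1 CPM). The log2 fold changes of CF against non-CF thus had opposite signs, 0.13 (SE 0.0773) in the earlier and -0.47 (SE 0.108) in the later libraries. Of 8 annotated TRPM6 transcripts, the 1 typed as mRNA held 0.737% of the counts. The rest fell on transcripts of the gene typed as miscellaneous RNA, which the sum includes.

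PVALB encodes parvalbumin, a calcium-binding protein of the early distal convoluted tubule in rodents that is also abundant in fast skeletal muscle (chromosome 5, from 10953559 to 10973300). It differed more by title number than between CF and non-CF. Its level was 26.5 ± 9.93 CPM (SD, n = 13) in the earlier and 51.4 ± 15.3 (SD, n = 10) in the later libraries, a log2 fold change of 0.96 (SE 0.191). This difference of later from earlier libraries was 0.99 (SE 0.285) under the label CF and 0.95 (SE 0.213) in non-CF. Within non-CF it was uneven: the means were 26.6 CPM in earlier and 66.4 in later HET libraries, but 30.0 and 38.8 in WT. Later HET libraries, from 59.8 to 74.2 CPM, lay above later WT libraries, from 31.1 to 46.5 CPM. By label it ranged from 13.2 to 64.7 CPM in CF, from 16.8 to 74.2 in HET and from 25.9 to 46.5 in WT. The log2 fold change of CF against non-CF was -0.20 (SE 0.266). Of 4 annotated PVALB transcripts, that of 535 bases held 78.2% of the counts, with 45.6% to 92.1% in single libraries. Its mean share was 76.1% ± 14.4 (SD, n = 11) in CF, 85.2% ± 0.945 (SD, n = 6) in HET and 62.2% ± 19.3 (SD, n = 6) in WT, so that the share varied little among HET libraries and widely among WT libraries.

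Taken as a group and without a test, 10 of 10 genes had a lower level under the label CF than in non-CF, with a median log2 fold change of -0.22 against -0.00052 over all 20921 genes tested. In the earlier libraries 7 of 10 were lower (median -0.25, all genes -0.01), and in the later libraries 9 of 10 (median -0.34, all genes 0.01). Non-CF pools HET and WT, and the earlier libraries labelled CF were not lower than HET for most genes. Mean CPM there was higher in CF than in HET for SLC12A3 (239 and 233), SLC8A1 (297 and 210) and ATP2B1 (166 and 151). The same held for CALB1, TRPM6, TRPV5, KCNJ10 and WNK4, but not for PVALB and TFAP2B. In the later libraries, all 5 CF libraries lay below all 5 non-CF libraries for SLC12A3, CALB1, TRPM6, SLC8A1 and ATP2B1. Of all 20921 genes tested, 2.39% were separated in this direction among the later libraries and 2.25% in the other. Among the earlier libraries 0 of 10 genes were separated in either direction. There, 0.0621% of all genes were separated with CF below and 0.569% with CF above. Over all libraries the comparison called 0.349% of all genes tested at an adjusted p under 0.05. Since this contrast was in view when the 10 genes were selected, nothing is read from their counts in it.

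**Figure D2:**
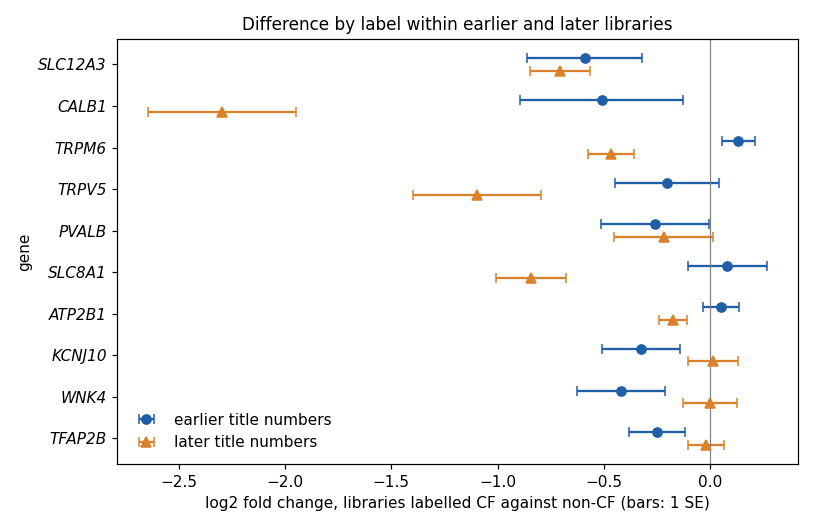
Log2 fold change of libraries labelled CF against non-CF for each of the 10 genes (horizontal axis), fitted within the 13 earlier (blue circles) and the 10 later libraries (orange triangles), with bars of 1 SE. CALB1 (-0.51 and -2.29), TRPV5 (-0.20 and -1.10) and SLC8A1 (0.08 and -0.84) lie farther from 0 in the later libraries, and WNK4 (-0.42 and -0.00086) and KCNJ10 (-0.32 and 0.01) in the earlier.

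Between the labels HET and WT, differences of the 10 genes come from a fit of all 23 libraries. Of the 10, 7 were lower in HET, with a median log2 fold change of HET against WT of -0.21 against -0.0043 over all 21434 genes. The largest of the lower values was that of KCNJ10, -0.47 (SE 0.148), with 22.9 to 41.5 CPM in HET and 41.5 to 55.2 in WT. WNK4 followed with -0.43 (SE 0.178). SLC12A3 had -0.28 (SE 0.235; 0.41 in the later libraries alone), PVALB 0.50 (SE 0.361; -0.18 in the earlier alone) and CALB1 0.04 (SE 0.473), and the SEs of PVALB and CALB1 were the widest of the 10 genes. The means of SLC12A3 in HET and WT were 233 and 453 CPM in the earlier libraries, and 452 and 343 in the later. Those of PVALB were 26.6 and 30.0 CPM in the earlier, and 66.4 and 38.8 in the later. With a library left out, SLC12A3 lay between -0.47 and -0.12 and PVALB between 0.32 and 0.67. For KCNJ10, WNK4 and TFAP2B the mean of HET, at 34.7, 57.2 and 24.2 CPM, stood beside that of CF, at 36.9, 56.6 and 23.4, and below that of WT, at 48.2, 77.3 and 28.3. For WNK4 and TFAP2B this held in the earlier libraries only. Among the later, HET stood above WT, at 61.2 and 53.9 CPM for WNK4 and 23.5 and 22.2 for TFAP2B (log2 fold changes 0.19 and 0.0913). For CALB1 the means of HET (178 CPM) and WT (174 CPM) over all libraries combine opposite directions. Earlier HET libraries had a mean of 71.4 CPM, beside 76.8 in earlier CF and below 138 in earlier WT, while later HET libraries had 285 and later WT libraries 246. The log2 fold change of CALB1 for HET against WT was -0.95 in the earlier libraries alone, and over all libraries it ran from -0.38 to 0.31 with a library left out.

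Another 40 genes of the pathway passed the filter. By edgeR, 0 of 40 had an adjusted p under 0.05 for CF against non-CF, while 11 had an unadjusted p under 0.05, 7 higher and 4 lower, where 13.7% of all genes did. DESeq2 called 1 of the 40 and 483 of all genes. The 40 were lower in 23 and higher in 17 cases, with a median log2 fold change of -0.07. For HET against WT edgeR called 0 of 40, with 2 at an unadjusted p under 0.05 and a median of 0.02, and DESeq2 called 0. Over all genes the shares for HET against WT were 0.00467% at an adjusted p under 0.05 in edgeR's fit, which is CFTR alone, and 8% at an unadjusted p under 0.05. On simulated counts, edgeR recovered 52% of genes changed by a log2 of 0.5 for CF against non-CF and 28% for HET against WT. A gene that was not called is thus not shown to be unchanged.

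Regulators of the cotransporter counted 12 genes, 6 higher and 6 lower under the label CF. WNK1, a kinase of the same family as WNK4, had 864.5 CPM in CF and 749 in non-CF, a log2 fold change of 0.21 (SE 0.0702, adjusted p = 0.167 by edgeR), and was above the non-CF median in 11 of 11 libraries. KLHL3, the adaptor that marks WNK kinases for degradation, had 0.30 (SE 0.105, adjusted p = 0.175 by edgeR), with 0.02 in the earlier and 0.63 in the later libraries. Of 6 basolateral channel and sodium pump genes, 3 were higher and 3 lower. Among these ATP1B1, a subunit of the sodium pump, had the largest difference, -0.16 (SE 0.0896, adjusted p = 0.464 by edgeR).

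Among 8 genes of magnesium handling, 3 were higher and 5 lower. TRPM7, the channel related to TRPM6, had 270 CPM in CF and 232 in non-CF, a log2 fold change of 0.22 (SE 0.0628, adjusted p = 0.0994 by edgeR), and was above the non-CF median in 11 of 11 libraries. DESeq2 called this gene (adjusted p = 0.0332). EGF, whose product acts on magnesium uptake, had -0.26 (SE 0.140, adjusted p = 0.420 by edgeR).

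Among 8 genes of calcium handling, 2 were higher and 6 lower, with a median of -0.16. CASR, the calcium-sensing receptor, had 46.8 CPM in CF and 56.2 in non-CF, a log2 fold change of -0.26 (SE 0.0846, adjusted p = 0.142 by edgeR), below the non-CF median in 10 of 11 libraries. Without CF4 its adjusted p was 0.0380. CYP24A1, which breaks down vitamin D hormone, had -0.41 (SE 0.157, adjusted p = 0.228 by edgeR), which with S100G was the largest difference of the list. S100G, calbindin-D9k, was named after its values were seen, since it is another calcium-binding protein of this pathway. Its level was low, with 2.88 CPM in CF and 3.83 in non-CF, and its log2 fold change was -0.41 (SE 0.487) over all libraries, 0.71 in the earlier and -2.44 in the later libraries, a description with no test.

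Of 6 transcription factors of the distal nephron, 3 were higher and 3 lower, and TFAP2A, a relative of TFAP2B, had the largest difference, -0.11 (SE 0.149, adjusted p = 0.804 by edgeR). For HET against WT the smallest p values of the 40 genes were those of FXYD2, the gamma subunit of the sodium pump (log2 fold change 0.56, p = 0.00651 in edgeR's fit, adjusted p = 0.541), SLC41A1, a magnesium transporter (0.31, adjusted p = 0.624), and ATP2B4, another calcium pump (-0.30, adjusted p = 0.657).

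Genes with levels like those of SLC12A3 and CALB1 were listed by Pearson's r of log2 CPM over 23 libraries, as a description with no test. All points share the 3 labels and both ranges of title numbers. For SLC12A3 they include PLEKHD1 (r = 0.85), LOC100525821 (0.80), LOC100154071 (0.80) and LOC110261664 (0.80). Each of these had an r of 0.71 or more in the earlier and in the later libraries taken alone. Among the other 9 genes of the segment, WNK4 came closest to SLC12A3 (r = 0.65), with 0.83 in the earlier and 0.21 in the later libraries.

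For CALB1 the 5 closest genes were the cyclin gene CCNB3 (r = 0.86), SLC8A1 (0.83), the aquaglyceroporin gene AQP7 (0.80), UBASH3B (0.78) and TRPV5 (0.76). SLC8A1 and TRPV5 thus ranked 2 and 5 among all genes tested. Both were chosen, as CALB1 was, in view of differences by label and title number, and r over all libraries includes those differences. Nothing is therefore read from these ranks. For SLC8A1 r was 0.71 in the earlier and 0.91 in the later libraries, and for TRPV5 0.66 and 0.81. Over all libraries r with CALB1 was 0.10 for WNK4, 0.14 for PVALB, 0.23 for TFAP2B and 0.45 for SLC12A3. It differed by title number for SLC12A3 (0.28 earlier, 0.72 later), TRPM6 (-0.52 and 0.80) and ATP2B1 (-0.16 and 0.77), and in the other direction for KCNJ10 (0.55 and -0.10).

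Upstream sequences are shown for SLC12A3, which defines the segment, and for CALB1, which differed most between CF and non-CF. They are the 250 bases before the start of the transcript with most counts, read from the RefSeq genome Sscrofa11.1, 5′ to 3′ on the strand of the gene. The window of SLC12A3 is chr6:18844502-18844751 (forward strand) and that of CALB1 chr4:46701026-46701275 (forward strand). Capitals mark matches to GCCNNNGGC, a motif of the TFAP2 family that reads the same on both strands.
SLC12A3: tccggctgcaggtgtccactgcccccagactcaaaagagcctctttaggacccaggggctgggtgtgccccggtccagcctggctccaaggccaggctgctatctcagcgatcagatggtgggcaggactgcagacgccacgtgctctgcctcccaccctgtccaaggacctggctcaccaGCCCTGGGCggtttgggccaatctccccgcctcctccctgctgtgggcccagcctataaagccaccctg
CALB1: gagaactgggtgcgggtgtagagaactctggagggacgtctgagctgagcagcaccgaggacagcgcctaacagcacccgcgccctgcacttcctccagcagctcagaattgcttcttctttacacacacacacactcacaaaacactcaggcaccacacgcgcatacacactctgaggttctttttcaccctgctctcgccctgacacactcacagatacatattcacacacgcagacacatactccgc

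SLC12A3 held 1 match, 69 bases before the start, and CALB1 held 0. The motif occurred in 21.5% of 20623 windows of the same length before annotated protein-coding genes. GTTAAT (HNF1), TCAAGGTCA (ESRR) and ATGCAAAT (POU octamer), searched on both strands, occurred in 6.24%, 0.325% and 1.30% of all windows and in neither of these sequences. A match is a description of these letters and not of a binding site. GC content was 65.6% in the window of SLC12A3 and 54.8% in that of CALB1.

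Markers of the other cell types of the cortex were summed in each library and are given as lowest, median and highest CPM. Their part in the differences above was not tested. The list for the thick ascending limb (7 of 7 genes present, SLC12A1 most abundant) had 1010, 1344 and 1747 CPM in CF and 1022, 1451 and 1684 in non-CF. Of the 7 genes, 3 were higher and 4 lower under the label CF. SLC12A1, the cotransporter of that segment and one of the lower, had a log2 fold change of -0.28 (SE 0.0808, adjusted p = 0.0966 by edgeR) and was above the non-CF median in 0 of 11 CF libraries. Among the later libraries it did not overlap between the labels, with 504 to 659 CPM in CF and 738 to 845 in non-CF (log2 fold change -0.40). The list differed in direction there, with 4 genes lower and 3 higher. Among the higher were UMOD (log2 fold change 0.36, SE 0.169) and CLDN19 (0.46, SE 0.205), named after their values were seen. For connecting tubule and principal cells (7 of 7 genes, SCNN1A most abundant), the sums were 176, 255 and 331 CPM in CF and 194, 242 and 349 in non-CF. Among the later libraries, where CALB1 did not overlap between the labels, they were 198, 203 and 255 CPM in CF and 194, 247 and 266 in non-CF, so that the sums overlapped. Genes within this list differed in direction among the later libraries. The water channel genes AQP2 and AQP3, named after their values were seen, did not overlap: AQP2 had 20.5 to 38.6 CPM in CF and 40.8 to 64.8 in non-CF, with a log2 fold change of -0.79 (SE 0.1700), and AQP3 19.3 to 27.2 and 29.6 to 41.7 CPM, with -0.60 (SE 0.1186). SCNN1A had 0.15 (SE 0.1375). Intercalated cell markers (6 of 6, ATP6V1B1 most abundant) had 249, 379 and 475 CPM in CF and 240, 302 and 384 in non-CF. Of the 6 genes, 3 were higher and 3 lower under the label CF, with log2 fold changes from -0.30 to 0.38. The highest was that of ATP6V1B1 (SE 0.110, adjusted p = 0.103 by edgeR), with means of 266 CPM in CF and 204 in non-CF.

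Proximal tubule markers (9 of 9, LRP2 most abundant with 4910 CPM) had a median of 11205 CPM in CF and 10660 in non-CF. Podocyte markers (5 of 5, PODXL most abundant) had medians of 934 and 834 CPM, and nephron progenitor markers (4 of 4, EYA1 most abundant) 18.01 and 18.8 CPM. Smooth muscle markers (5 of 5, ACTA2 most abundant) had 416 and 397 CPM. Endothelial markers (5 of 5, KDR most abundant) had 536 and 591 CPM. Among the later libraries the endothelial sums did not overlap, with 433 to 550 CPM in CF and 560 to 615 in non-CF. Single genes of the list differed in direction there, from KDR (log2 fold change -0.48) to CDH5 (0.10), which was named after its value was seen. Skeletal muscle markers, given beside PVALB, summed to 4.30 to 8.61 CPM in all 23 libraries (5 of 5, CKM most abundant with 3.45 CPM). Their median was 6.11 CPM in the earlier and 5.69 in the later libraries, while PVALB was higher in the later. Adrenal cortex markers (3 of 4 in the annotation, CYP11A1 most abundant) had medians of 8.88 and 8.87 CPM. No marker gene was at 0 in every library.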

How the data were processed

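RNA of kidney cortex from 23 newborn pigs had been pseudoaligned by the authors with kallisto to RefSeq transcripts of Sscrofa11.1. The estimated counts the authors deposited are per transcript and not normalized. The TPM values the authors deposited are those estimates per effective transcript length, scaled to a constant sum per library. Estimated counts of 77689 transcripts were summed per symbol to 26687 genes and rounded. TPM values were summed likewise. A symbol's sum includes all its annotated transcripts, and reads shared by similar genes were divided by kallisto. No pair of libraries held identical counts.

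Genes were tested with edgeR 4.0.16 (R 4.3.3), using TMM scaling, the filterByExpr filter and quasi-likelihood F tests. Benjamini-Hochberg adjusted p values were held against 0.05. CF against non-CF was fitted with both groups, over 20921 genes, and HET against WT with the 3 labels as groups, over 21434. No p is read for the 10 genes in either. Log2 CPM used a prior count of 2. CPM values are after TMM scaling. The steps were tested on simulated counts. Alternatives were DESeq2 1.42.0, limma 3.58.1 on log2 TPM plus 0.1, median-of-ratios scaling, no filter, title numbers as a term or taken apart, each control label alone, an exact Mann-Whitney U test on CPM with adjusted p (the study names a Mann-Whitney U test; input, exact form and adjustment were chosen here), and each library left out in turn. Sequences were read with pysam 0.24.0, and figures drawn with matplotlib 3.10.9 in Python 3.11.15.

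The 10 genes, the lists of other genes and the tests were chosen with earlier results of these data known. Genes named are CFTR, the 10 genes, of the other pathway genes the 3 with the smallest p in each comparison and those with the largest difference of each list, genes among the 5 most like SLC12A3 and CALB1, and the most abundant marker of each list. S100G, HSD11B2, PTH1R, UMOD, CLDN19, AQP2, AQP3 and CDH5 were added after their values were seen. Raw reads and protein sequences were not used here.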

Additional observations from a re-analysis of the deposited data

Results flagged for a closer look

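In 22 groups of 6 libraries (10 genes and CFTR, each in HET and in WT), the highest or lowest library was set against the others. A gap to its neighbour above 0.625 of the whole range was found in 2 groups. No chance rate is set beside this count, since the 10 genes were chosen in view of labels and title numbers. CALB1 in WT22 was at 320.5 CPM, with the next WT library at 172 CPM and the lowest at 103. TRPM6 in WT23 was at 60.19 CPM, with the next at 49.4 and the lowest at 43.7. Both libraries have later title numbers, and the WT group holds 4 earlier and 2 later libraries, so the gaps are not separate from differences by title number. The gaps are a description of single libraries and no test of these genes.

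For TRPM6, the libraries labelled CF were all above the non-CF median among the earlier title numbers and all below it among the later ones. The log2 fold change was 0.13 in the earlier and -0.467 in the later libraries. The difference between these values was not tested.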

How the results depend on the processing

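No paired analysis was possible because the labels share no replicate numbers between groups. For CF against non-CF, 73 genes had an adjusted p under 0.05. The count was 483 with DESeq2, 148 with title numbers as a term, 0 in the earlier libraries alone (1958 at an unadjusted p under 0.05), 473 in the later alone, 8 on TPM, 0 against HET alone (2025 unadjusted) and 29 by the exact Mann-Whitney test. With each library left out it lay between 17, without HET21, and 203, without CF4. Among the 40 other distal tubule genes the count of 0 became 1 with DESeq2 (TRPM7), 4 in the later libraries alone (HSD11B2, KLHL3 and PTH1R higher, S100G lower), and 0 to 1 with a library left out, the 1 being CASR without CF4. For HET against WT the count of 1 became 29 with DESeq2, 17 in the earlier and 17 in the later libraries alone, and 1 to 3 with a library left out, 3 without HET15. The causes were not tested. HSD11B2 and PTH1R were named after their values were seen, and the split by title number was found in these data, so the calls within it support nothing.

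For the 10 genes, 327 values for CF against non-CF moved by less than 1 SD and 3 by more. This SD is that of log2 CPM of single libraries within labels, a wide limit: it is 0.94 for CALB1, which was at -0.50 in the earlier libraries alone and -2.29 in the later. TRPM6 moved in the earlier and the later libraries and SLC8A1 in the later. PVALB was at 0.07 against WT alone, KCNJ10 at 0.09 against HET alone, and, in the earlier libraries with genes filtered anew, ATP2B1 at 0.06 and SLC8A1 at 0.09 (0.05 and 0.08 in the report, with the filter of all libraries). KCNJ10 was at 0.01 in the later. For HET against WT, 175 values kept their direction and 15 did not. In the later libraries alone the sign turned for SLC12A3 (0.41), WNK4 (0.19) and TFAP2B (0.0913). In the earlier alone it turned for CALB1 (-0.95) and PVALB (-0.18). With title numbers as a term it turned for CALB1 (-0.13), and on TPM for CALB1 (-0.38) and TRPM6 (-0.0723), where the median of all genes was -0.129. With a library left out CALB1 lay between -0.38 and 0.31 and ATP2B1 between -0.0781 and 0.0125. The order of the 10 genes differed by scale: in CPM, which is not per length, SLC8A1 ranked 1 and CALB1 4.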
